A study of Mus musculus with 12 samples.

Results

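The data compared here are 6 liver arrays whose titles end in the letter F, 3 numbered as wild-type mice (WT 25, WT 27 and WT 38, genotype ENT3 +/+) and 3 as knockout mice (KO 13, KO 40 and KO 69, genotype ENT3 -/-). They are 6 of the 12 arrays in the series, and the other 6 carry the letter M. All mice were of the strain C57BL6/J and were killed at 12 weeks, with no treatment named in the labels, and total RNA of snap-frozen liver was hybridised to Affymetrix MTA 2.0 arrays, each of which reports a log2 signal for each transcript feature. The labels do not say how the allele was made, in which cells it is lost or which litter, housing or time of death each mouse had. The letter F was taken to mean female: Xist read 10.28 to 12.39 on these arrays and 4.18 to 4.45 on the M-titled ones. Of the 65956 transcript features tested, 61625 lie on autosomes, and these include 28140 named genes. Only autosomal genes are described.

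ENT3, encoded by Slc29a3, is an equilibrative nucleoside transporter found mainly in the membranes of lysosomes and mitochondria. Lysosomes of macrophages receive large amounts of nucleic acid from engulfed cells, and ENT3 lets the resulting nucleosides out. The liver contains hepatocytes, which carry out most of its metabolism, together with resident macrophages called Kupffer cells, sinusoidal endothelial cells, stellate cells and bile duct cells. Hepatocytes are marked by albumin and other plasma proteins, Kupffer cells by receptors such as Marco and Timd4, and neutrophils by the calcium-binding proteins S100a8 and S100a9.

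The arrays of KO 13 and KO 69 were nearly the same. Over the 9433 features above the negative controls in at least 1 of the F-titled groups their difference had an SD of 0.27, against 0.42 to 0.75 in the 11 other pairs of arrays from 1 group. In that pair 72 features differed by more than 1 log2 unit, and in the others 287 to 1280 did. The robust SD of the difference (from the median absolute deviation) stayed between 0.19 and 0.22 from the dimmest to the brightest features, the level of noise that dim features showed in the other pairs (0.18 to 0.21 for features with a mean signal below 4). In those pairs it was 0.39 to 0.70 for features with a mean signal of 10 to 13, where livers of different mice differ. KO 13 and KO 69 thus differed by no more than measurement noise, so their mean was counted as 1 sample and the KO group as 2. The 2 arrays may hold the same RNA or the same animal, which the labels do not settle. A fit without KO 13 still holds KO 69, and the reverse, so these 2 fits take no KO sample away. A call said below to be kept with any 1 mouse left out thus says nothing on the loss of both. A fit without both was also run, and it leaves KO 40 as the only KO sample. Values are listed in the order WT 25, WT 27, WT 38 and KO 13, KO 69, KO 40. A difference is the KO mean minus the WT mean in log2 units of the deposited scale, with the standard error (SE) of a limma model. The numbers in the titles were taken to name mice. The p values measure only the spread between samples, pooled over all 4 groups of both title letters. With KO 40 left out the F-titled KO group is 1 averaged sample, so the p values take their spread from the other groups. Called means a Benjamini-Hochberg adjusted p under 0.05 over all 65956 features.

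**Figure D1:**
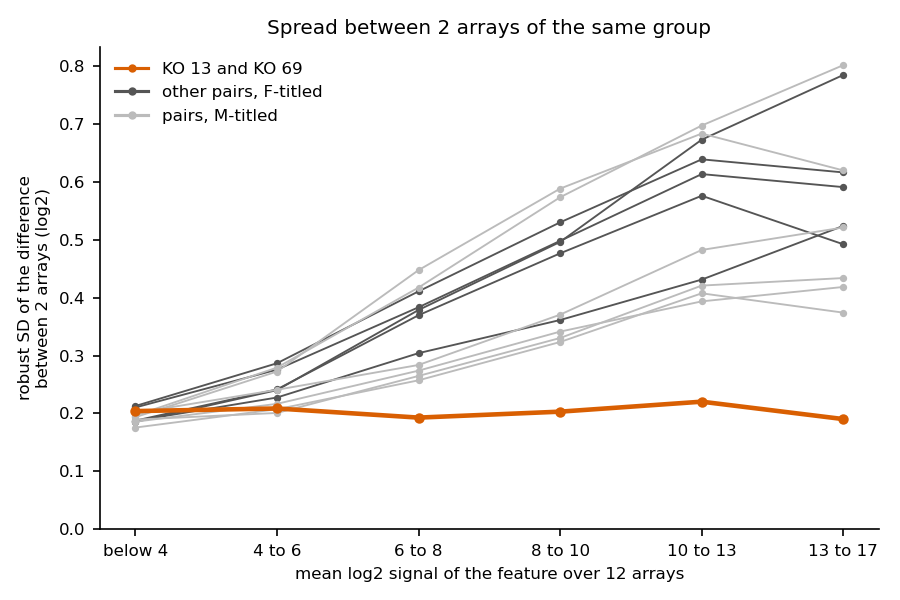
Robust SD of the difference between 2 arrays of the same group (y axis, log2) against the mean signal of the features (x axis, log2, 6 classes), with 1 line for each of 12 pairs. The line of KO 13 and KO 69 stays at 0.19 to 0.22 throughout, and the 11 other lines rise to 0.39 to 0.70 in the class of 10 to 13.

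Measures of the arrays themselves also separated the genotypes. The spiked-in poly-A RNAs, added to check the labelling reaction, averaged 5.98 to 6.15 in WT against 5.10 to 5.26 in KO. The positive controls had medians of 8.36 to 8.70 in WT against 7.93 to 7.98 in KO, and the 95th percentile of the negative controls was 6.20 to 6.39 in WT against 6.69 to 6.83 in KO. The hybridisation spikes overlapped, at 10.16 to 10.60 in WT against 10.42 to 10.48 in KO. The smallest two-sided p that an exact permutation test can give with 3 samples against 2 is 0.1, which each of the first 3 measures reached. With the poly-A level as a covariate 1 feature was called in place of 2123, so genotype and labelling cannot be told apart in these arrays. Hepatocyte markers were present throughout, with 4 of 6 (Alb, Ttr, Apoa1 and Cps1) at the upper limit of the scale (19.93) on every array, and the mean of the 6 was 17.42 to 17.64 in WT and 16.95 to 17.41 in KO. RNA of pancreatic enzymes was present in 2 WT livers: Ctrb1, the precursor of chymotrypsin, read 14.14, 12.04 and 3.69 in WT and 3.62, 3.64 and 3.79 in KO.

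The targeted gene was lower in KO. Slc29a3 read 5.02, 5.29 and 5.18 in WT and 4.14, 4.10 and 4.10 in KO. The groups did not overlap, and the difference was -1.05 ± 0.12 (adjusted p = 0.00648). The WT level itself lay below the 95th percentile of the negative controls, and whether the probes lie in the removed part of the gene is not known from the labels. The call was kept with any 1 mouse left out and lost in a fit of the F-titled arrays alone (adjusted p = 0.0578) and with the poly-A level as a covariate (adjusted p = 0.229). Among 27 measured genes of nucleoside transport and salvage, 1 rose and 0 fell, and their median difference was 0.00. The riser was Xdh, the xanthine dehydrogenase that makes uric acid, with 9.52, 9.72 and 9.49 in WT and 10.72, 10.56 and 10.99 in KO (difference 1.24 ± 0.24, adjusted p = 0.0321). Xdh lost the call without KO 40 or any 1 WT mouse (adjusted p 0.0638 to 0.197). Of the 27 genes of the list 0 were called without KO 40, WT 27 or WT 38 and 2 were called without KO 13 or WT 25. Slc29a1, the plasma-membrane relative of Slc29a3, differed by -0.71 ± 0.21 and did not pass (adjusted p = 0.113).

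Called genes were divided between higher and lower in KO. Among the lists of pathways and cell types, 11 of 24 Kupffer cell and macrophage genes, 6 of 18 Fc receptor and lectin genes and 3 of 20 neutrophil genes were called higher. On the lower side were 13 of 37 cytochrome P450 enzymes, 7 of 20 genes of mitochondrial fatty acid oxidation and 6 of 28 bile acid genes. Of all features 2123 were called (3.22%), 1060 higher (1.61%) and 1063 lower (1.61%), and of the autosomal ones 3.31%, with 1.64% higher and 1.67% lower. Of the 9433 features above the negative controls in at least 1 F-titled group 456 were called higher and 840 lower. Of the remaining features 604 were called higher and 223 lower, and the negative controls themselves read higher in KO. Among the 28140 autosomal named genes 1478 were called (5.25%), 577 higher (2.05%) and 901 lower (3.2%). In 1475 of these 1478 the WT and KO arrays did not overlap, so a lack of overlap adds nothing to a call. Bright genes were called more often: of the 6272 named genes whose mean over the 12 arrays exceeded 6.50, the mean 95th percentile of the negative controls, 233 were higher (3.71%) and 670 lower (10.7%). The median difference was 0.04 over all named genes and -0.12 over the bright ones. The split of all called features depended on the scaling, with 832 higher and 1333 lower after quantile normalization and 787 higher and 1577 lower after median centring. Without KO 13 and KO 69 together it was 1588 higher and 638 lower. Counts depended on single mice too. There were 371 called features without KO 40, 610 without WT 38 and 1031 without WT 27, and 4083 with KO 13 and KO 69 as separate samples. A gene is called dim here where no group had all of its arrays above the 95th percentile of the negative controls.

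**Figure D2:**
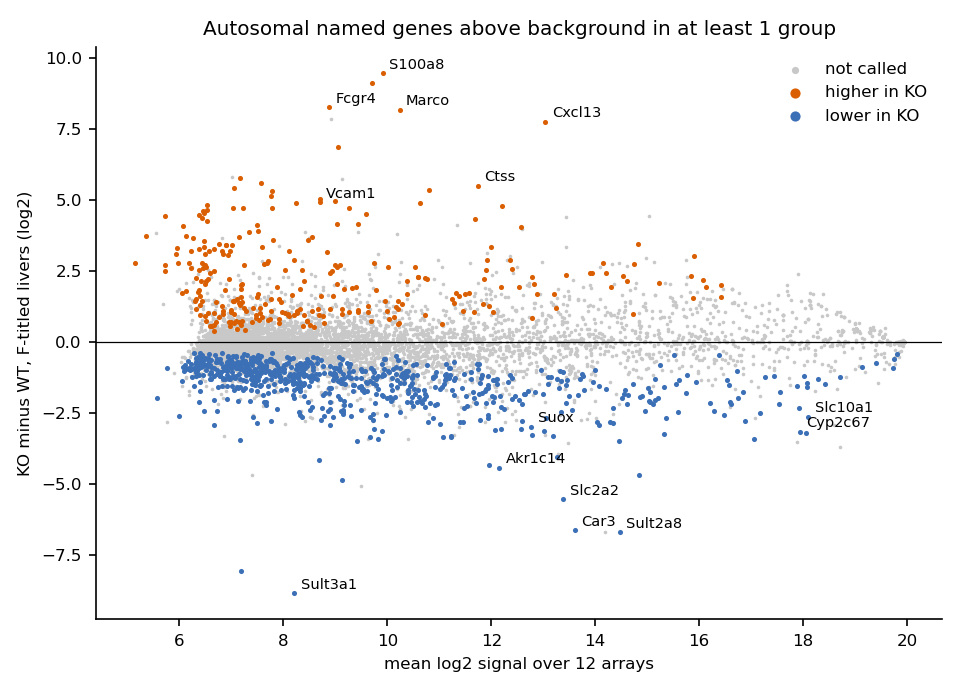
Difference of KO minus WT (y axis, log2) against mean signal over the 12 arrays (x axis, log2) for autosomal named genes above the negative controls in at least 1 F-titled group. S100a8 lies highest at 9.48 and Sult3a1 lowest at -8.84, and most of the called genes are below 0.

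The calls were set against 44 gene lists for pathways and cell types. Of their 1119 measured genes 61 were higher and 118 lower, and without KO 13 and KO 69 together 112 were higher and 87 lower. Lists of macrophages, Fc receptors, recruited monocytes and Toll-like receptor signalling held the largest shares of higher genes among lists with more than 9 measured members, and those of cytochrome P450 enzymes and mitochondrial fatty acid oxidation the largest shares of lower ones. With 1 mouse left out the lists held 45 called genes without KO 40, 62 without WT 38, 83 without WT 27 and 132 to 187 without any of the others.

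**Figure D3:**
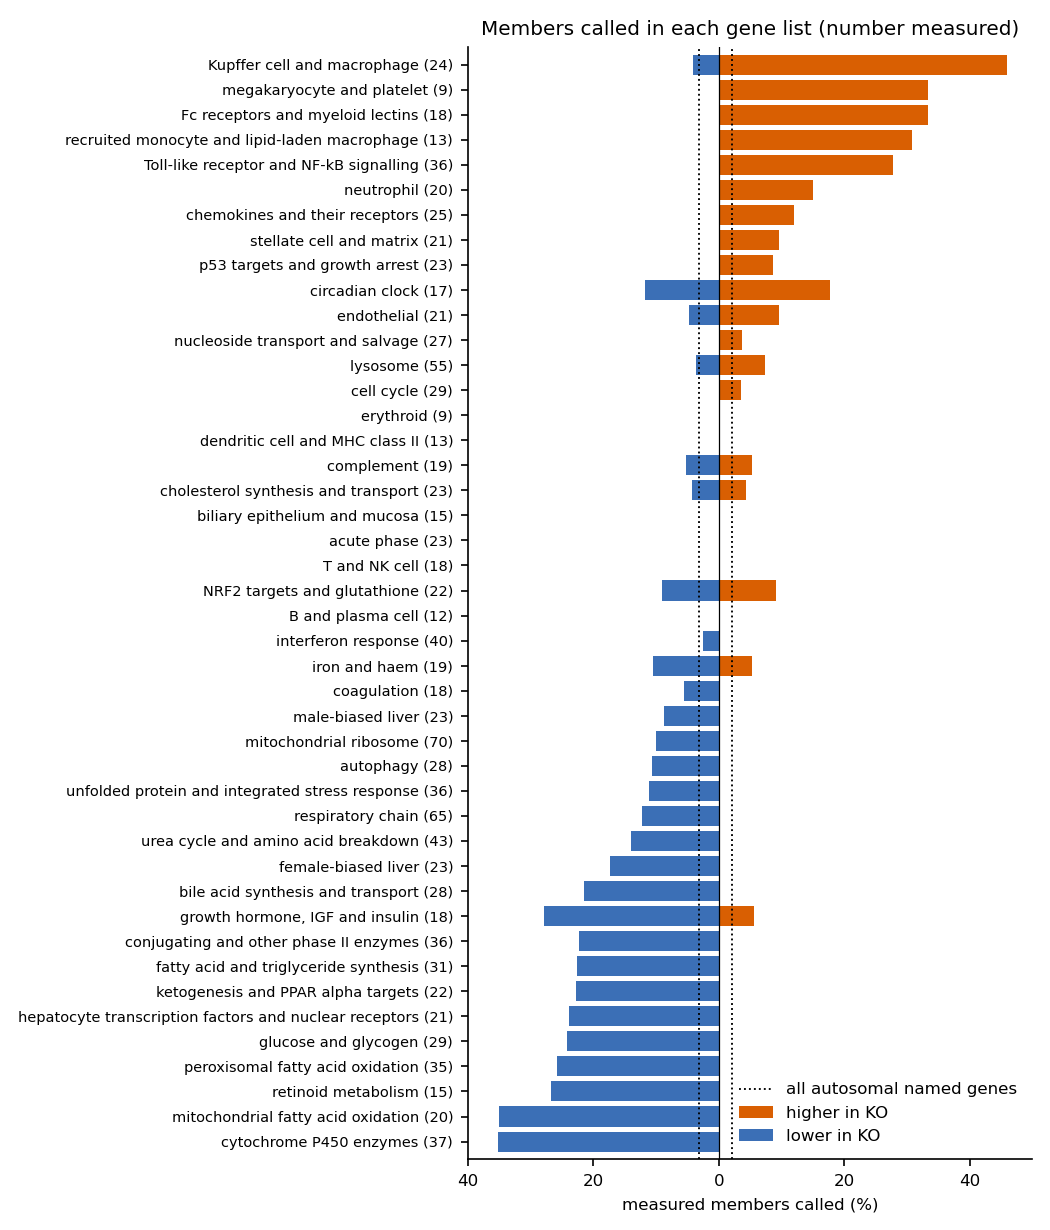
Share of the measured members of each list that were called (x axis, percent), higher in KO to the right and lower to the left, with the number measured in parentheses. Dotted lines mark the shares over all autosomal named genes, 2.05% higher and 3.2% lower. Kupffer cell and macrophage genes reach furthest right (11 of 24) and cytochrome P450 enzymes furthest left (13 of 37).

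The largest rises were those of S100a8 and S100a9, which together form calprotectin, an abundant antimicrobial protein of neutrophils. S100a8 read 5.50, 6.10 and 6.09 in WT and 15.80, 16.32 and 14.70 in KO (difference 9.48 ± 1.69, adjusted p = 0.0252). S100a9 read 6.19, 5.41 and 6.01 in WT and 15.65, 15.34 and 14.48 in KO (difference 9.12 ± 1.71, adjusted p = 0.0283). Every KO liver was far above every WT liver, while KO 40 was the lowest of the KO livers for both. Of 20 measured neutrophil genes 3 rose, and their median difference was 0.68. The third was Il1r2, a decoy receptor for interleukin 1, at a level below the 95th percentile of the negative controls (difference 1.05 ± 0.19). Retnlg, a resistin-like neutrophil protein, read 4.72, 4.57 and 4.89 in WT and 11.79, 11.62 and 9.41 in KO and just missed the threshold (adjusted p = 0.051). Ly6g, Mpo, Elane, Csf3r and Cxcr2, which define neutrophils and their precursors, were not above the negative controls in either group. The mean of the 8 neutrophil markers was 4.63 to 4.76 in WT and 7.84 to 8.35 in KO. S100a8 and S100a9 lost the call without KO 40 or any 1 WT mouse (adjusted p 0.0511 to 0.124) and Il1r2 without KO 40, WT 27 or WT 38 (0.0718 to 0.0892). Of the 20 neutrophil genes 0 were called without KO 40, WT 27 or WT 38, 1 was called without WT 25 and 6 were called without KO 13.

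Of 24 measured Kupffer cell and macrophage genes 11 rose, 1 fell and 12 did not pass, with a median difference of 1.83. Marco, a scavenger receptor that binds bacteria, read 7.08, 6.61 and 7.99 in WT and 14.00, 13.71 and 16.98 in KO (difference 8.19 ± 1.16, adjusted p = 0.0124). Ctss, the lysosomal protease cathepsin S, which trims peptides for antigen presentation, read 9.85, 9.66 and 10.57 in WT and 14.03, 13.72 and 17.21 in KO (difference 5.51 ± 0.90, adjusted p = 0.0191). For both genes all KO livers were above all WT livers and KO 40 was the highest. Adgre1, which encodes the macrophage surface receptor EMR1, read 6.51, 6.06 and 6.86 in WT and 9.63, 9.49 and 13.19 in KO (difference 4.90 ± 0.90, adjusted p = 0.0271). Cd5l, a secreted protein of tissue macrophages, differed by 4.80 ± 0.99 (adjusted p = 0.0394). Csf1r, the receptor for the growth factor on which macrophages depend, differed by 4.16 ± 0.73 (adjusted p = 0.0243), and C1qc, a chain of the complement component C1q, by 3.21 ± 0.52 (adjusted p = 0.0186). Timd4, which recognises dying cells and marks long-resident Kupffer cells, read 5.80, 6.26 and 7.16 in WT and 8.74, 8.67 and 10.84 in KO (difference 3.37 ± 0.70, adjusted p = 0.0393). The faller, chosen after its value was seen, was Cd163, the haemoglobin scavenger receptor, at -1.56 ± 0.31 (adjusted p = 0.0362).

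Macrophage markers did not all move alike. Clec4f, a lectin restricted to Kupffer cells in the mouse, read 8.83, 8.70 and 9.59 in WT and 8.70, 8.41 and 11.01 in KO, so that KO 13 and KO 69 lay within or below the WT range and KO 40 alone above it (difference 0.74 ± 0.61, adjusted p = 0.589). The mean of the 8 measured macrophage markers was 7.42 to 8.36 in WT and 10.30 to 13.03 in KO, and 7 of them were called higher. In bulk tissue, more cells of a type and more RNA per cell cannot be told apart. Of the 24 Kupffer cell and macrophage genes 0 were called without KO 40, 2 were called without WT 27, 3 were called without WT 38 and 5 were called without WT 25. The median departure of the 24 from the WT mean was 2.48 in KO 40 and 1.22 in KO 13 and KO 69. Adgre1, Cd5l and Timd4 lost the call without KO 40 or any 1 WT mouse (adjusted p 0.0525 to 0.223), Ctss and Csf1r without KO 40, WT 27 or WT 38 (0.0512 to 0.106) and Marco without KO 40 (0.0714). C1qc lost it without KO 40 or WT 27 (0.0517 to 0.103).

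Receptors for antibodies and related lectins rose as well. Of 18 measured, 6 rose and 0 fell (median difference 1.30). Fcgr4, an activating receptor for IgG on monocytes, macrophages and neutrophils, read 5.61, 4.82 and 6.39 in WT and 13.14, 12.76 and 14.82 in KO (difference 8.28 ± 0.96, adjusted p = 0.00697). Fcer1g, the signalling chain shared by activating Fc receptors, read 7.10, 6.13 and 6.91 in WT and 12.62, 12.74 and 14.53 in KO (difference 6.89 ± 0.81, adjusted p = 0.00709). The groups did not overlap for either gene. The C-type lectin genes Clec4a1, Clec4a3, Clec4a2 and Clec12a differed by 5.78, 5.59, 2.63 and 2.65. Clec4a2 was dim. Among genes of recruited monocytes and lipid-laden macrophages 4 of 13 rose. Tyrobp, a signalling adaptor of myeloid cells, differed by 3.90 ± 0.81 (adjusted p = 0.0393), and the integrin chains Itgax and Itgam by 2.78 and 2.17, of which Itgam was dim. Gpnmb, a marker of lipid-laden macrophages, differed by 0.52 ± 0.13 at a level below the 95th percentile of the negative controls and did not pass (adjusted p = 0.0634). Clec4a1 and Clec4a3 lost the call without KO 40 (adjusted p 0.0903 to 0.0923), Clec12a and Tyrobp without KO 40 or any 1 WT mouse (0.0733 to 0.205) and Itgax without KO 40 or WT 38 (0.0585 to 0.0899). Itgam lost it without KO 40, WT 27 or WT 38 (0.0531 to 0.106). Fcgr4, Fcer1g and Clec4a2 kept the call with any 1 mouse left out. Of the 18 Fc receptor and lectin genes 3 were called without KO 40. Of the 13 monocyte genes 0 were called without KO 40 or WT 38, 1 was called without WT 27 and 2 were called without WT 25.

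Further members of the largest rises are also known from myeloid cells. Cd300e, an activating receptor of monocytes, differed by 5.43 ± 0.87, and Mpeg1, a pore-forming protein of phagocytes, by 5.37 ± 0.85. Itgb2, the beta chain shared by leukocyte integrins, differed by 5.32 ± 0.73, Ms4a6c by 5.14 ± 0.69, Adgre4 by 5.04 ± 0.79 and Wfdc17 by 4.89 ± 0.95. Hmox1, which breaks down haem, read 7.11, 7.41 and 7.66 in WT and 10.87, 10.85 and 13.85 in KO (difference 4.96 ± 0.84, adjusted p = 0.0216). In its list, NRF2 targets and glutathione, 2 of 22 rose and 2 fell, among the latter Nfe2l2, which encodes NRF2 (-1.13 ± 0.25, adjusted p = 0.0476). Cd300e, Itgb2, Ms4a6c and Adgre4 lost the call without KO 40 (adjusted p 0.0657 to 0.117), Mpeg1 without KO 40 or WT 38 (0.053 to 0.0971) and Wfdc17 without KO 40 or any 1 WT mouse (0.0639 to 0.194). Hmox1 lost it without KO 40, WT 27 or WT 38 (0.0535 to 0.0923) and Nfe2l2 without KO 69, KO 40, WT 27 or WT 38 (0.058 to 0.146). Of the 22 NRF2 genes 0 were called without WT 38, 1 was called without KO 40 or WT 27 and 2 were called without KO 69.

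Promoter sequences of 3 of these genes are shown because they share a motif bound by PU.1, the transcription factor that directs myeloid development. The sequences are RefSeq promoters of build GRCm38.p6, 300 bases each and mostly before the annotated start, written 5′ to 3′ on the strand of the gene. Capitals mark GAGGAAGT or its reverse complement ACTTCCTC and, in S100a8, also the TATA box letters TATAAA.
S100a8 (chr3:90668821-90669120, plus strand): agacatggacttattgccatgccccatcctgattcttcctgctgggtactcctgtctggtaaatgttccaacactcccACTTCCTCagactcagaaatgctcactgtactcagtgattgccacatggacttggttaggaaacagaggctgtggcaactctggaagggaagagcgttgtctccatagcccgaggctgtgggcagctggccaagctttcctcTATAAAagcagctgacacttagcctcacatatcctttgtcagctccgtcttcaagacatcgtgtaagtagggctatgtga
Fcgr4 (chr1:171018676-171018975, plus strand): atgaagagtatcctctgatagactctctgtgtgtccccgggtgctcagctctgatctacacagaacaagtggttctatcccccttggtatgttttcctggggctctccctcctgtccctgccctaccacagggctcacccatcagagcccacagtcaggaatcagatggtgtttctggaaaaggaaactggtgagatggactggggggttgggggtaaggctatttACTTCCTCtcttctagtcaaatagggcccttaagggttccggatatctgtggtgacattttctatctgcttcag
Ctss (chr3:95526536-95526835, plus strand): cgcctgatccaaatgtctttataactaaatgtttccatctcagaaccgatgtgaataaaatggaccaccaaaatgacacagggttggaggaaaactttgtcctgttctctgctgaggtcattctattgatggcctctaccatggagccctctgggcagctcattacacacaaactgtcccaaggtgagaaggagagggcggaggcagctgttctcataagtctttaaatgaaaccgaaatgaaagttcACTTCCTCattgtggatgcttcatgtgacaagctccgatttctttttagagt
In all 3 the motif is read on the strand opposite to the gene, and its first base lies 172 bases before the start in S100a8, 24 in Fcgr4 and 2 in Ctss. Of the 20 genes with the largest rises 15 had a promoter in the RefSeq table, and 4 of these 15 (Adgre4 beside the 3 shown) held the motif on either strand. Among the 27025 genes with a promoter there, taking the first listed of each, 3.28% did. None of the 17 matched promoters of the 20 largest falls held it, which is not unusual at a share of 3.28%. Other motifs were searched in the same promoters. The TATA box letters were in 5 of the 15 (14.2% of all promoters) and a C/EBP motif in 3 (10.8%). An NF-kB motif was in 1 (1.62%), a STAT motif in 1 (8.47%), and motifs of HNF4, forkhead and AP-1 factors in 0. A match of letters is a description and shows no binding.

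**Figure D4:**
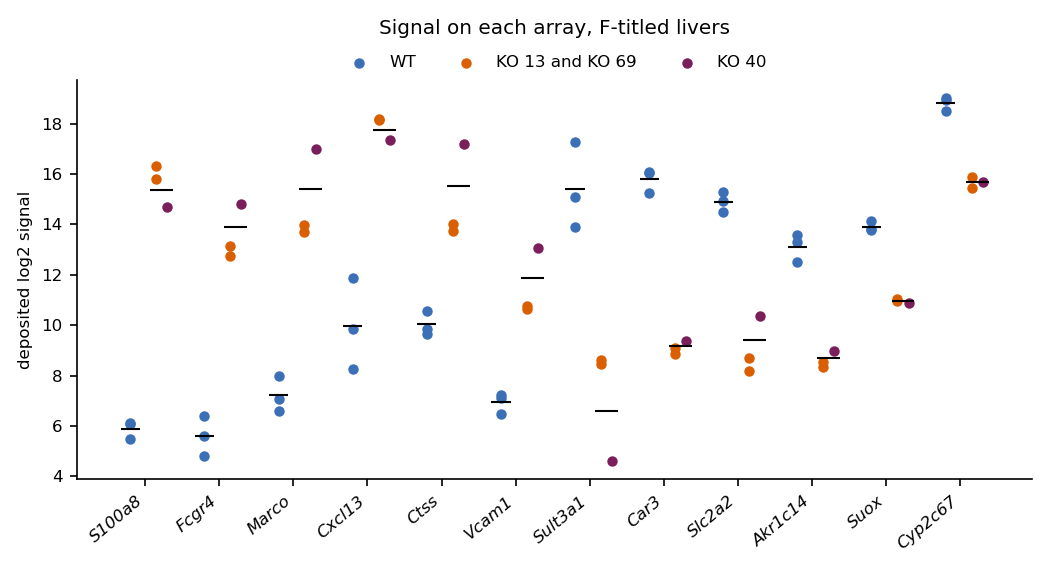
Deposited log2 signal (y axis) of 12 named genes on each of the 6 arrays, with WT in blue, KO 13 and KO 69 in orange and KO 40 in purple. Lines mark the group means, with KO 13 and KO 69 averaged first. WT and KO do not overlap for any of the 12 genes, as for 1475 of the 1478 called named genes. KO 40 lies above KO 13 and KO 69 for Marco, Ctss and Vcam1 and below them for Sult3a1.

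Genes of Toll-like receptor and NF-kB signalling rose in 10 of 36 cases with 0 lower, and their median difference was 0.56. Vcam1, an adhesion protein that NF-kB induces, read 7.22, 6.49 and 7.12 in WT and 10.75, 10.64 and 13.08 in KO (difference 4.94 ± 0.62, adjusted p = 0.00941). Cd14, a co-receptor for bacterial lipopolysaccharide, read 5.30, 5.21 and 5.06 in WT and 6.70, 6.98 and 6.80 in KO (difference 1.63 ± 0.22, adjusted p = 0.0112). Both inhibitors named by the rule rose with the receptors: Irak3, which blocks Toll-like receptor signalling, differed by 2.80 ± 0.46, and Tnfaip3, the ubiquitin-editing protein A20, by 1.16 ± 0.19. Cd180, a relative of the Toll-like receptors, differed by 2.78 ± 0.50, and Tnf, the cytokine itself, by 0.55 ± 0.08. Cd14, Tnfaip3 and Tnf were dim. Cd14 and Tnf lost the call without KO 40 (adjusted p 0.0613 to 0.0627), Irak3 without KO 40 or WT 38 (0.0583 to 0.0625) and Tnfaip3 without WT 27 or WT 38 (0.053 to 0.0656). Cd180 lost it without KO 40 or any 1 WT mouse (0.0511 to 0.144). Vcam1 kept the call with any 1 mouse left out. Of the 36 genes 3 were called without WT 38, 4 were called without WT 27 and 5 were called without KO 40 or WT 25.

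Chemokines moved singly. Cxcl13, which attracts B cells, read 8.25, 9.85 and 11.85 in WT and 18.19, 18.16 and 17.34 in KO (difference 7.77 ± 1.36, adjusted p = 0.0241). The groups did not overlap although the WT livers were themselves far apart. Ccl6 and Ccl3, which attract monocytes, differed by 2.88 and 1.21, and Ccl3 was dim. These were the 3 that rose of 25 measured, and 0 fell (median difference 0.23). Cxcl9, which interferon gamma induces, read 8.17, 6.45 and 7.80 in WT and 10.73, 10.62 and 15.76 in KO and did not pass (adjusted p = 0.0847). Interferon-response genes gave 1 fall and 0 rises among 40, the fall being Eif2ak2, the antiviral kinase PKR (-1.25 ± 0.21, adjusted p = 0.0229). The median departure of the 40 from the WT mean was 0.77 in KO 40 and -0.36 in KO 13 and KO 69. Ccl6 and Ccl3 lost the call without KO 69, KO 40 or any 1 WT mouse (adjusted p 0.0525 to 0.234), Cxcl13 without KO 40 or WT 27 (0.061 to 0.106) and Eif2ak2 without KO 40 or WT 38 (0.0526 to 0.0709). Of the 25 chemokine genes 0 were called without WT 27 and 1 was called without KO 69, KO 40, WT 25 or WT 38. Of the 40 interferon-response genes 0 were called without KO 40 or WT 38 and 2 were called without WT 27.

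Acute-phase genes, which hepatocytes induce in inflammation, were not called. By limma 0 of 23 passed (5 at an unadjusted p under 0.05), 13 had a difference above 0 and the median difference was 0.41. Steap4 read 11.45, 10.52 and 10.73 in WT and 16.23, 16.14 and 13.55 in KO and differed by 3.97 ± 1.03 (adjusted p = 0.076), and Saa3 differed by 1.01 ± 0.26 at a level below the 95th percentile of the negative controls (adjusted p = 0.0696). With KO 13 and KO 69 as separate samples 3 of the 23 were called, and 1 was called without WT 25. Of 19 complement genes C9, a pore-forming terminal component, rose (12.63, 11.63 and 12.23 in WT and 14.58, 14.45 and 14.69 in KO, difference 2.44 ± 0.52, adjusted p = 0.0422) and C8g fell (-1.79 ± 0.26, adjusted p = 0.0135). C9 lost the call without KO 40 or any 1 WT mouse (adjusted p 0.0511 to 0.206). C8g kept the call with any 1 mouse left out. Of the 19 complement genes 1 was called without WT 25, WT 27 or WT 38.

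Lymphocyte genes were not called, but immunoglobulin segments were. By limma 0 of 18 T and NK cell genes passed (4 at an unadjusted p under 0.05) and 0 of 12 B and plasma cell genes (3 at that p). Likewise 0 of 13 dendritic cell and MHC class II genes (3 at that p), 0 of 15 biliary genes (3) and 0 of 9 erythroid genes (0 at that p) passed. With KO 13 and KO 69 as separate samples 1 B cell gene and 1 biliary gene were called. The median departure from the WT mean was 0.22 in KO 40 and -0.004 in KO 13 and KO 69 for T and NK cell genes. It was 0.32 and -0.01 for dendritic cell and MHC class II genes and -0.07 and 0.02 for B and plasma cell genes. Single fits called 1 biliary gene without KO 40 or WT 38 and 1 B cell gene without KO 69. The B cell markers Ms4a1 and Cd79a lay below the 95th percentile of the negative controls in every liver. None of the 5 T and NK cell markers was above the negative controls in all arrays of either group. Of 199 immunoglobulin variable segments, a family chosen after its values were seen, 22 rose and 0 fell (median difference 0.62). In the Igkv4 group of light-chain segments 13 of 25 rose. Igkv4-59 read 5.58, 4.24 and 4.79 in WT and 10.91, 10.60 and 8.64 in KO (difference 4.83 ± 0.81, adjusted p = 0.0208). KO 40 was the lowest KO liver here, unlike in the macrophage genes. Segments of this family are close copies of each other, so signal of neighbours may cross-hybridise and their rises are not independent. Jchain, which joins antibody units, read 3.94, 3.76 and 3.99 in WT and 5.26, 5.43 and 4.59 in KO and did not pass (adjusted p = 0.0948). Igkv4-59 lost the call without WT 27 or WT 38 (adjusted p 0.0559 to 0.0678).

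Endothelial genes gave 2 rises and 1 fall among 21. Pecam1 and Cdh5, adhesion proteins of all endothelial cells, differed by 1.46 ± 0.27 (adjusted p = 0.0279) and 1.07 ± 0.21 (adjusted p = 0.0305). Ehd3, which marks sinusoidal endothelium, read 11.63, 11.21 and 12.31 in WT and 9.74, 9.79 and 9.51 in KO (difference -2.08 ± 0.32, adjusted p = 0.0157). Stab2 and Clec4g, also of sinusoidal endothelium, differed by 0.15 and -1.41 without passing. Among stellate cell and matrix genes 2 of 21 rose, Vim, an intermediate filament of mesenchymal and myeloid cells (2.79 ± 0.51), and Col4a1, a basement membrane collagen that was dim (0.52 ± 0.09). Col1a1, the main fibrillar collagen, lay below the 95th percentile of the negative controls and differed by 0.39 ± 0.14 (adjusted p = 0.159). Of the platelet list Clec1b, Itgb3 and Gp5 rose among 9 measured, of which 1 was bright. Itgb3 and Gp5 were dim, and quantile normalization and median centring each left 1 of the 3 list calls. Clec1b, a lectin of platelets that Kupffer cells also express, differed by 2.64 ± 0.53. Pecam1, Cdh5, Clec1b and Itgb3 lost the call without KO 40 or any 1 WT mouse (adjusted p 0.0502 to 0.194), Ehd3 without KO 40 (0.102) and Vim without KO 40, WT 27 or WT 38 (0.0688 to 0.174). Col4a1 lost it without KO 40 or WT 38 (0.0713 to 0.0742) and Gp5 without KO 69, KO 40 or any 1 WT mouse (0.0777 to 0.190). Of the 21 endothelial genes 0 were called without KO 40 and 1 was called without WT 25, WT 27 or WT 38. Of the 21 stellate cell genes 0 were called without KO 40 or WT 38 and 1 was called without WT 27. Of the 9 platelet genes 0 were called without KO 40, WT 25, WT 27 or WT 38.

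Sulfotransferases showed the largest falls. Sult3a1, which transfers sulfate to amines, read 13.90, 15.10 and 17.27 in WT and 8.47, 8.63 and 4.62 in KO (difference -8.84 ± 1.47, adjusted p = 0.0203). Sult3a2 read 10.98, 13.65 and 15.85 in WT and 6.50, 6.70 and 4.26 in KO (difference -8.06 ± 1.22, adjusted p = 0.0151). Sult2a8, which sulfates bile acids, read 14.58, 15.42 and 17.27 in WT and 6.71, 7.26 and 11.13 in KO (difference -6.70 ± 1.40, adjusted p = 0.0408). No KO liver reached the WT range for any of the 3, and the WT livers were far apart among themselves. KO 40 was the lowest liver for both Sult3a genes and the highest KO liver for Sult2a8. Of 10 measured Sult2a and Sult3a genes 5 fell and 0 rose, and Sult2a1, a steroid sulfotransferase chosen after its value was seen, did not pass (difference 0.12 ± 0.71, adjusted p = 0.958). Sult3a1 lost the call without KO 40 or WT 38 (adjusted p 0.0625 to 0.123), Sult3a2 without KO 40 (0.103) and Sult2a8 without KO 40 or any 1 WT mouse (0.0514 to 0.124). Members of the Sult2a group, and likewise those of the Sult3a group, are related in sequence, and signals within a group may mix.

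Cytochrome P450 enzymes, which oxidise drugs, steroids and fatty acids, fell in 13 of 37 cases with 0 higher, beside 10.7% lower among bright genes, and 30 of the 37 were as bright. Their median difference was -1.07. The Cyp2c family held 8 of 14 measured genes that fell. Cyp2c67 read 18.93, 18.51 and 19 in WT and 15.45, 15.87 and 15.67 in KO (difference -3.15 ± 0.20, adjusted p = 0.00174), a drop shared almost equally by the 3 KO arrays. Cyp2c69 read 16.53, 16.35 and 17.33 in WT and 13.88, 13.94 and 13.08 in KO (difference -3.24 ± 0.32, adjusted p = 0.0047), Cyp2c37 differed by -3.20 ± 0.36, Cyp2c40 by -2.44 ± 0.26 and Cyp2c38 by -3.32 ± 0.45. Cyp2c70, the muricholic acid enzyme, is the family member with the largest difference in the other direction and did not pass; it was chosen after its values were seen (1.76 ± 0.82, adjusted p = 0.303). The Cyp2c genes are close paralogs, so a part of each signal may come from its neighbours. Cyp2a22 differed by -1.94 ± 0.26, and Cyp4a32, a fatty acid hydroxylase among PPAR alpha targets, by -1.56 ± 0.28. Cyp2c38 and Cyp2a22 lost the call without KO 40 (adjusted p 0.0669 to 0.0679) and Cyp4a32 without WT 27 or WT 38 (0.0523 to 0.0804). Cyp2c67, Cyp2c69, Cyp2c37 and Cyp2c40 kept the call with any 1 mouse left out. Of the 37 P450 genes 5 were called without KO 40.

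The promoters of 3 Cyp2c genes are shown because they hold the same 3 motifs with the same spacing. Capitals mark CAAAGTCCA, a motif of the hepatocyte factor HNF4, TTGCNNAA, a motif of C/EBP factors, and the TATA box letters TATAAA, in this order from the 5′ end.
Cyp2c67 (chr19:39648993-39649292, minus strand): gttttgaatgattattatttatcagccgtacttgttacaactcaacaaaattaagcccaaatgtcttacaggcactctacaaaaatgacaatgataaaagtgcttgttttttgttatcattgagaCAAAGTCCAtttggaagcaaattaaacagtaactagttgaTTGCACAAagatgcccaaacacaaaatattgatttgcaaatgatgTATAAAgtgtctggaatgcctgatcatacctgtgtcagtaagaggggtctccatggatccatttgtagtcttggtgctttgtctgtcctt
Cyp2c69 (chr19:39886720-39887019, minus strand): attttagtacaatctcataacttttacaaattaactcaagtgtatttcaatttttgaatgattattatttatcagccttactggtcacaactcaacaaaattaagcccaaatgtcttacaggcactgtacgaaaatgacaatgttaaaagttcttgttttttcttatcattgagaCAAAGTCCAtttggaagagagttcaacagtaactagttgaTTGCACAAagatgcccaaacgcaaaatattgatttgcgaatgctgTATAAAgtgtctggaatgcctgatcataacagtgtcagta
Cyp2c40 (chr19:39812765-39813064, minus strand): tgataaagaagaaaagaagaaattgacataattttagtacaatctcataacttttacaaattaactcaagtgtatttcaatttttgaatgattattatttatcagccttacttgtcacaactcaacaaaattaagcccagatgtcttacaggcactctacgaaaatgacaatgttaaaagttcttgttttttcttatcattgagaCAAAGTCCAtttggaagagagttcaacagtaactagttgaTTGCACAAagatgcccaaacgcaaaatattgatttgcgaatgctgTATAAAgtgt
In each promoter TTGCNNAA begins 40 bases and TATAAA 85 bases after the first base of CAAAGTCCA. That base lies 125 bases before the annotated start in Cyp2c67, 75 in Cyp2c69 and 45 in Cyp2c40, so the annotated starts differ in their distance from a common block. The longest identical run was 143 bases between Cyp2c69 and Cyp2c40, 40 between Cyp2c67 and Cyp2c69 and 36 between Cyp2c67 and Cyp2c40. On either strand CAAAGTCCA occurred in 0.477% of the 27025 promoters, TTGCNNAA in 10.8% and TATAAA in 14.2%. All 3 occurred together in 6 promoters, those of the 3 Cyp2c genes, Slc3a1 and 2 olfactory receptor genes. Of the 8 Cyp2c genes that fell only these 3 were among the 6, so the motifs are not a trait of the Cyp2c falls as a whole. Of the 17 matched promoters among the 20 largest falls 1 (Hsd3b3) held CAAAGTCCA, and of the 15 among the 20 largest rises 0 did. Hnf4a, which encodes HNF4 alpha, read 11.80, 12.67 and 12.65 in WT and 12.35, 12.32 and 10.84 in KO and did not pass (adjusted p = 0.440).

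Conjugating enzymes fell with the P450 enzymes. Of 36 measured, 8 fell and 0 rose (median difference -0.84). Ugt3a1, a glycosyltransferase, read 12.92, 13.74 and 14.40 in WT and 10.58, 10.92 and 10.07 in KO (difference -3.27 ± 0.41, adjusted p = 0.00921). Gstz1, which acts in tyrosine breakdown, differed by -1.77 ± 0.19 (adjusted p = 0.00581), Ugt2b34 by -2.41 ± 0.36 and Gstk1 by -1.67 ± 0.31. Other oxidoreductases were among the 20 largest falls: Akr1c14, a hydroxysteroid dehydrogenase, read 13.59, 12.49 and 13.28 in WT and 8.36, 8.53 and 8.97 in KO (difference -4.42 ± 0.49, adjusted p = 0.00623). Hsd3b3, another steroid dehydrogenase, differed by -4.32 ± 0.52, the aldehyde oxidase Aox3 by -3.35 ± 0.49 and the dihydrodiol dehydrogenase Dhdh by -3.34 ± 0.46. Ugt3a1, Ugt2b34, Aox3 and Dhdh lost the call without KO 40 (adjusted p 0.0587 to 0.0735) and Gstk1 without KO 40 or WT 27 (0.0519 to 0.160). Gstz1, Akr1c14 and Hsd3b3 kept the call with any 1 mouse left out. Of the 36 conjugating enzymes 1 was called without KO 40 and 4 were called without WT 27 or WT 38.

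Of the other largest falls, Car3, an abundant cytosolic carbonic anhydrase of liver and fat, read 16.06, 15.25 and 16.04 in WT and 9.11, 8.88 and 9.36 in KO (difference -6.60 ± 1.12, adjusted p = 0.0218), and Car5a, the mitochondrial form that supplies bicarbonate to the urea cycle, differed by -3.48 ± 0.66 (adjusted p = 0.03). The 3 KO arrays lay close together and far below WT for Car3. Agmat, which hydrolyses agmatine, read 11.82, 12.37 and 13.06 in WT and 9.35, 9.21 and 8.91 in KO (difference -3.32 ± 0.35, adjusted p = 0.00581). Among other large falls were the N-acetyltransferase-like gene Nat8f2 (-3.40 ± 0.62), the creatine transporter Slc16a12 (-3.41 ± 0.51), Fam13a (-3.45 ± 0.44), Apol7a (-4.14 ± 0.73) and the protein kinase D isoform Prkd3 (-3.34 ± 0.38). Car3 and Slc16a12 lost the call without KO 40 or WT 38 (adjusted p 0.0523 to 0.106), Car5a without KO 40, WT 25 or WT 38 (0.0605 to 0.158) and Nat8f2 without KO 40, WT 27 or WT 38 (0.0633 to 0.149). Fam13a lost it without KO 40 (0.0587) and Apol7a without KO 40 or any 1 WT mouse (0.0502 to 0.0863). Agmat and Prkd3 kept the call with any 1 mouse left out.

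Fatty acid oxidation genes fell in mitochondria and in peroxisomes. Of 20 measured mitochondrial genes, all as bright as the set in which 10.7% were lower, 7 fell and 0 rose, and every one of the 20 had a difference below 0 (median -1.22). Eci1, the enoyl-CoA isomerase needed for unsaturated fatty acids, read 10.77, 10.46 and 11.40 in WT and 7.59, 7.34 and 9.01 in KO (difference -2.64 ± 0.48, adjusted p = 0.0261). Hadh, Acaa2 and Acads, which carry out different steps of the cycle, differed by -1.97, -1.23 and -1.21. Of 35 peroxisomal genes 9 fell and 0 rose (median -0.80). In the mitochondrial list the median departure from the WT mean was -0.98 in KO 40 and -1.44 in KO 13 and KO 69. In the peroxisomal list it was -0.75 and -1.09. Decr2, the dienoyl-CoA reductase of peroxisomes, read 14.57, 15.18 and 16.20 in WT and 12.36, 12.04 and 12.73 in KO (difference -2.86 ± 0.49, adjusted p = 0.022), Pecr, an enoyl-CoA reductase, differed by -2.30 ± 0.30, and Ech1, an isomerase, by -2.25 ± 0.32. Abcd2, which imports very long fatty acids, differed by -2.37 ± 0.45. Hadh and Abcd2 lost the call without KO 40 or any 1 WT mouse (adjusted p 0.0502 to 0.166), Acaa2 and Acads without KO 40, WT 27 or WT 38 (0.0504 to 0.0943) and Eci1 without WT 38 (0.0826). Decr2 lost it without KO 40 or WT 27 (0.0508 to 0.0857) and Pecr without KO 40 (0.0538). Ech1 kept the call with any 1 mouse left out. Of the 20 mitochondrial genes 0 were called without WT 38 and 1 was called without KO 40 or WT 27. Of the 35 peroxisomal genes 1 was called without KO 40, 2 were called without WT 27 and 3 were called without WT 38.

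Ketone body and lipid synthesis genes were lower too. Of 22 genes of ketogenesis and PPAR alpha targets 5 fell and 0 rose (median -0.75). Acat1, which makes the acetoacetyl-CoA of ketogenesis, read 17.05, 16.96 and 17.28 in WT and 14.94, 14.88 and 14.99 in KO (difference -2.14 ± 0.19, adjusted p = 0.00428). For this gene KO 40 was close to KO 13 and KO 69. Bdh1, which forms beta-hydroxybutyrate, differed by -2.90 ± 0.55. Of 31 genes of fatty acid and triglyceride synthesis 7 fell and 0 rose (median -0.98). In the ketogenesis list the median departure from the WT mean was -0.29 in KO 40 and -1.08 in KO 13 and KO 69. In the synthesis list it was -0.99 and -0.92. Gpd1, which makes glycerol phosphate for triglycerides, read 13.58, 15.39 and 15.45 in WT and 10.37, 10.08 and 11.27 in KO (difference -4.06 ± 0.55, adjusted p = 0.0113). Elovl6, which lengthens palmitate, read 9.40, 9.37 and 9.82 in WT and 6.58, 6.71 and 6.93 in KO (difference -2.74 ± 0.26, adjusted p = 0.0047). Fads2, the delta-6 desaturase, differed by -3.46 ± 0.60, Dgat2, which adds the last fatty acid to triglyceride, by -1.91 ± 0.35, and Elovl2 by -1.97 ± 0.39. In the cholesterol list Sc5d, a late enzyme of synthesis, fell (-1.91 ± 0.24) and Abcg1, a cholesterol exporter of macrophages that was dim, rose (1.37 ± 0.25) among 23. Bdh1 and Elovl2 lost the call without any 1 WT mouse (adjusted p 0.0606 to 0.109), Fads2 and Dgat2 without KO 40, WT 27 or WT 38 (0.0546 to 0.169) and Abcg1 without KO 40 or any 1 WT mouse (0.0543 to 0.163). Acat1, Gpd1, Elovl6 and Sc5d kept the call with any 1 mouse left out. Of the 22 ketogenesis and PPAR alpha genes 1 was called without WT 27 or WT 38 and 3 were called without WT 25. Of the 31 synthesis genes 2 were called without WT 27 or WT 38 and 3 were called without KO 40.

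Bile acid transporters of the hepatocyte surface were lower. Of the 28 genes that make or carry bile acids 6 fell and 0 rose (median -1.15). Slc10a1, the sodium-dependent uptake carrier NTCP, read 18.61, 18.68 and 18.75 in WT and 16.61, 16.64 and 15.50 in KO (difference -2.62 ± 0.26, adjusted p = 0.0047). Slco1b2, an uptake carrier for bile acids and bilirubin, read 17.64, 17.63 and 17.84 in WT and 14.60, 14.37 and 15.37 in KO (difference -2.78 ± 0.44, adjusted p = 0.0169). Slco2b1 differed by -1.69 ± 0.26, the canalicular exporter Abcc2 by -1.53 ± 0.19, and Fgfr4, the receptor through which the gut hormone FGF15 lowers bile acid synthesis, by -0.91 ± 0.19. Slco1b2 lost the call without KO 40 or WT 38 (adjusted p 0.0505 to 0.0585), Slco2b1 without KO 40 (0.103) and Fgfr4 without KO 69, KO 40 or any 1 WT mouse (0.0539 to 0.212). Slc10a1 and Abcc2 kept the call with any 1 mouse left out. Of the 28 bile acid genes 2 were called without KO 40 and 3 were called without WT 38.

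Glucose handling genes fell in 7 of 29 cases with 0 higher (median -0.90). Slc2a2, the hepatocyte glucose transporter GLUT2, read 14.92, 14.51 and 15.29 in WT and 8.68, 8.18 and 10.36 in KO (difference -5.51 ± 0.76, adjusted p = 0.0113). Gys2, the liver glycogen synthase, read 15.01, 13.68 and 15.48 in WT and 11.73, 11.76 and 12.08 in KO (difference -2.81 ± 0.49, adjusted p = 0.0241). Gckr, which holds glucokinase in the nucleus, differed by -1.72 ± 0.27, Ugp2, which makes UDP-glucose, by -1.46 ± 0.24, and Fbp1, a step of gluconeogenesis, by -1.01 ± 0.19. Gys2 lost the call without KO 40, WT 25 or WT 38 (adjusted p 0.0502 to 0.104), Gckr without KO 40 (0.115) and Ugp2 without WT 38 (0.0676). Fbp1 lost it without KO 69, KO 40 or any 1 WT mouse (0.0518 to 0.179). Slc2a2 kept the call with any 1 mouse left out. Of the 29 glucose genes 2 were called without KO 40 or WT 38. Amino acid genes fell in 6 of 43 cases with 0 higher. All 43 were bright, and their share was near the 10.7% of such genes. Slc25a13, the mitochondrial aspartate carrier citrin, differed by -1.86 ± 0.25 (adjusted p = 0.0113), Got2 by -1.80 ± 0.33 and Haao, of the tryptophan pathway, by -1.81 ± 0.30. Got2 and Haao lost the call without KO 40, WT 27 or WT 38 (adjusted p 0.0512 to 0.157) and Slc25a13 without KO 40 (0.0734). Of the 43 amino acid genes 0 were called without KO 40 and 1 was called without WT 27 or WT 38.

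Retinoid enzymes fell in 4 of 15 cases with 0 higher. Their median departure from the WT mean was -0.13 in KO 40 and -0.38 in KO 13 and KO 69. Retsat, which saturates retinol, read 15.80, 17.40 and 17.59 in WT and 10.96, 10.63 and 13.71 in KO (difference -4.68 ± 0.95, adjusted p = 0.0364), with KO 40 closer to WT than the other KO arrays. Rdh7, a retinol dehydrogenase with one of the 10 smallest p values, read 18.74, 18.79 and 18.89 in WT and 17.52, 17.26 and 17.26 in KO (difference -1.48 ± 0.10, adjusted p = 0.00219). Dhrs3, which reduces retinal, differed by -1.01 ± 0.14, Rdh16 by -2.20 ± 0.34 and Rdh10 by -1.01 ± 0.16. In haem synthesis Alad fell (9.68, 10.02 and 9.67 in WT and 7.71, 7.57 and 7.92 in KO, difference -2.01 ± 0.24, adjusted p = 0.00769), as did Fech, the last step (-1.16 ± 0.20). Rdh16 and Rdh10 lost the call without KO 40 (adjusted p 0.0704 to 0.0897), Retsat without WT 27 or WT 38 (0.0928 to 0.116) and Fech without KO 40, WT 27 or WT 38 (0.0505 to 0.105). Rdh7, Dhrs3 and Alad kept the call with any 1 mouse left out. Of the 15 retinoid genes 2 were called without KO 40.

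Respiratory chain and mitochondrial ribosome genes fell at about the share of all bright genes. Of 65 respiratory chain genes 8 fell and 0 rose, and 56 were bright, so the share called was near the 10.7% of bright genes (median -0.38). Ndufs8, a subunit of complex I, read 12.15, 12.71 and 12.89 in WT and 10.98, 10.53 and 10.99 in KO (difference -1.71 ± 0.24, adjusted p = 0.0122), and Sdhd, of complex II, differed by -1.47 ± 0.26. Of 70 mitochondrial ribosome genes 7 fell and 0 rose (median -0.28). Mrpl49 had the largest difference of those named (-1.56 ± 0.20, adjusted p = 0.00941). Ndufs8 and Mrpl49 lost the call without KO 40 (adjusted p 0.0569 to 0.0571) and Sdhd without KO 40 or WT 38 (0.0514 to 0.0589). Of the 65 respiratory chain genes 0 were called without KO 40, 2 were called without WT 38 and 5 were called without WT 27. Of the 70 ribosome genes 1 was called without KO 40 and 3 were called without WT 38.

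Nuclear receptors and factors that maintain hepatocyte identity were lower. Of 21 measured 5 fell and 0 rose (median -1.05), and 19 were bright. Thrb, a thyroid hormone receptor, read 7.58, 7.29 and 7.48 in WT and 6.49, 6.13 and 6.49 in KO (difference -1.05 ± 0.11, adjusted p = 0.00601). Nr5a2, the receptor LRH-1, read 9.90, 9.74 and 9.95 in WT and 8.49, 8.56 and 7.76 in KO (difference -1.73 ± 0.22, adjusted p = 0.00969). Foxa3, a forkhead factor, differed by -2.10 ± 0.29, the xenobiotic receptor PXR (Nr1i2) by -1.98 ± 0.29 and the bile acid receptor FXR (Nr1h4) by -1.66 ± 0.32. Foxa3 and Nr1i2 lost the call without KO 40 (adjusted p 0.0725 to 0.0857) and Nr1h4 without KO 40, WT 27 or WT 38 (0.0805 to 0.169). Thrb and Nr5a2 kept the call with any 1 mouse left out. Of the 21 genes 2 were called without KO 40.

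Growth hormone and insulin signalling genes gave 5 falls and 1 rise among 18. Stat5b, through which growth hormone sets the sex-specific liver programme, read 7.59, 7.50 and 7.74 in WT and 6.67, 6.47 and 6.52 in KO (difference -1.07 ± 0.10, adjusted p = 0.00425). Ghr, the growth hormone receptor, differed by -1.17 ± 0.25, Igfals, which stabilises circulating IGF1, by -3.05 ± 0.67, and the insulin receptor substrate Irs1 by -2.02 ± 0.32. Fst, the activin inhibitor follistatin, rose by 0.63 ± 0.12. Irs1 and Fst were dim. Ghr lost the call without KO 69, KO 40 or any 1 WT mouse (adjusted p 0.0519 to 0.266), Igfals without KO 13, KO 40 or any 1 WT mouse (0.0536 to 0.281) and Irs1 without KO 40 or WT 38 (0.0584 to 0.0919). Fst lost it without any 1 WT mouse (0.0585 to 0.0719). Stat5b kept the call with any 1 mouse left out. Of the 18 genes 1 was called without WT 38 and 2 were called without KO 40, WT 25 or WT 27. Of 23 genes known as female-biased in liver 4 fell (Sult3a1, Cyp2c69, Cyp2c40 and Abcd2) and of 23 known as male-biased 2 fell (Keg1 and Ugt2b38), with 0 higher in either list. The shares called were 17.4% and 8.7%, beside 10.7% lower among bright genes, and 18 and 16 of the 23 were bright. The median differences were -0.92 and -0.73. Keg1 was dim. Keg1 lost the call without KO 40, WT 25 or WT 38 (adjusted p 0.0549 to 0.154) and Ugt2b38 without KO 40 or any 1 WT mouse (0.0549 to 0.0938). Of the 23 female-biased genes 2 were called without KO 40. Of the 23 male-biased genes 0 were called without WT 25 or WT 38 and 1 was called without KO 40 or WT 27.

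Clock genes moved in both directions. Arntl, which encodes the activator BMAL1, read 5.94, 6.51 and 5.91 in WT and 8.61, 8.64 and 8.06 in KO (difference 2.23 ± 0.41, adjusted p = 0.0275), and Npas2 differed by 0.55 ± 0.11. Nfil3, a repressor of the output loop, read 4.64, 4.54 and 4.52 in WT and 6.72, 6.24 and 6.03 in KO (difference 1.69 ± 0.14, adjusted p = 0.00325). Per2 and Nr1d2, repressors of the core loop, differed by -0.66 ± 0.11 and -1.03 ± 0.19. Thus 3 of 17 rose and 2 fell. The levels of Nfil3, Per2 and Npas2 were not above the negative controls in all arrays of either group. Arntl and Nr1d2 lost the call without KO 40, WT 25 or WT 38 (adjusted p 0.055 to 0.179), Npas2 without KO 40 or any 1 WT mouse (0.0696 to 0.09) and Per2 without KO 40, WT 27 or WT 38 (0.062 to 0.109). Nfil3 kept the call with any 1 mouse left out. Of the 17 clock genes 1 was called without KO 40 or WT 38, 2 were called without WT 25 and 3 were called without WT 27.

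Lysosomal genes rose and fell in a list whose median difference was 0.03. Of 55 measured 4 rose and 2 fell. Lgmn, the protease legumain, read 10.61, 10.98 and 11.24 in WT and 13.40, 13.20 and 15.31 in KO (difference 3.36 ± 0.62, adjusted p = 0.0272). Ctsc, cathepsin C, which activates granule proteases of leukocytes, read 10.08, 10.11 and 10.15 in WT and 11.94, 11.89 and 12.90 in KO (difference 2.29 ± 0.31, adjusted p = 0.0112). Laptm5, a lysosomal membrane protein of blood cells, differed by 3.10 ± 0.43 and Asah1, acid ceramidase, by 1.88 ± 0.39. Tpp1, a peptidase, and Arsb, an arylsulfatase, fell by 1.29 and 0.59 on the log2 scale. Lgmn and Asah1 lost the call without KO 40 or any 1 WT mouse (adjusted p 0.0573 to 0.217), Ctsc and Laptm5 without KO 40 (0.0522 to 0.0657) and Tpp1 without KO 40, WT 27 or WT 38 (0.0616 to 0.132). Arsb lost it without KO 40 or WT 38 (0.0582 to 0.0587). Of the 55 lysosomal genes 0 were called without KO 40, 2 were called without WT 38 and 3 were called without WT 27. The macrophage markers given above moved with the rises, and their part in them was not tested.

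Autophagy and stress response genes fell at about the share of all bright genes. In autophagy 3 of 28 genes fell, led by Gabarapl1 (-2.15 ± 0.39), and in the unfolded protein and integrated stress response 4 of 36 did, led by Shmt2 (-2.10 ± 0.27). These shares, 10.7% and 11.1%, stand beside 10.7% lower among bright genes, and 21 of the 28 and 20 of the 36 were bright. Growth arrest genes gave 2 rises among 23, Btg2 (6.67, 6.43 and 6.62 in WT and 8.28, 7.86 and 8.09 in KO, difference 1.51 ± 0.15, adjusted p = 0.0047) and the dim gene Ier3 (0.70). Cdkn1a, the cell cycle inhibitor p21, read 9.22, 10.32 and 8.80 in WT and 12.65, 12.39 and 14.00 in KO and did not pass (adjusted p = 0.0611). Of 29 cell cycle genes 1 rose, Ccne1 (0.59), at a level below the 95th percentile of the negative controls. Gabarapl1 lost the call without KO 40, WT 25 or WT 38 (adjusted p 0.0527 to 0.154), Shmt2 without KO 40 (0.0607) and Ier3 without KO 40 or WT 38 (0.0577 to 0.119). Ccne1 lost it without KO 40 or any 1 WT mouse (0.0794 to 0.105). Btg2 kept the call with any 1 mouse left out. The median departure of the 29 cell cycle genes from the WT mean was 0.86 in KO 40 and 0.14 in KO 13 and KO 69. Of the 28 autophagy genes 0 were called without KO 40 or WT 38. Of the 36 stress response genes 0 were called without KO 40, 1 was called without WT 25 or WT 38 and 2 were called without WT 27.

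Of the genes with the 10 smallest p values, 8 fell and 2 rose. Suox, the sulfite oxidase of mitochondria, read 13.78, 13.82 and 14.15 in WT and 10.98, 11.02 and 10.88 in KO (difference -2.97 ± 0.17, adjusted p = 0.00174). Jmjd8 differed by -2.10 ± 0.13, Scly, which recycles selenium, by -1.87 ± 0.14, and Cops7a, a subunit of the COP9 signalosome, by -1.47 ± 0.12. Aldh2, which oxidises acetaldehyde, read 19.24, 19.39 and 19.39 in WT and 18.53, 18.31 and 18.49 in KO (difference -0.89 ± 0.07, adjusted p = 0.00274). Sucnr1, the succinate receptor, read 7.29, 7.81 and 7.49 in WT and 4.07, 4.51 and 4.93 in KO (difference -2.92 ± 0.22, adjusted p = 0.00274), and Cd207, the lectin langerin, read 5.33, 4.94 and 5.54 in WT and 9.48, 9.19 and 10.65 in KO (difference 4.72 ± 0.33, adjusted p = 0.00219). These 7 genes, with Cyp2c67, Rdh7 and Nfil3, kept the call in all of the fits that left 1 mouse out.

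KO 40 differed from KO 13 and KO 69 in called and in other genes. Of the 577 called rises KO 40 was more than 1 log2 unit above the mean of the other KO arrays in 106 and more than 1 below it in 17. Of the 901 called falls it was more than 1 above in 15 and more than 1 below in 24. Over the 6440 named genes above the negative controls in at least 1 group, 408 were more than 1 higher and 260 more than 1 lower in KO 40, and KO 13 and KO 69 differed by more than 1 in 21. Tff3, a peptide of mucus-secreting epithelium, read 4.66, 4.37 and 4.0 in WT and 15.68, 15.83 and 8.67 in KO and did not pass (difference 7.87 ± 2.46, adjusted p = 0.127). Gzma, a granule protease of T and NK cells, read 4.41, 4.42 and 4.90 in WT and 5.14, 5.16 and 9.49 in KO, so that KO 40 alone stood apart. Muscle transcripts were raised in 1 liver of each genotype, and Acta1, skeletal actin, read 4.61, 7.39 and 4.56 in WT and 4.68, 4.50 and 7.84 in KO.

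**Figure D5:**
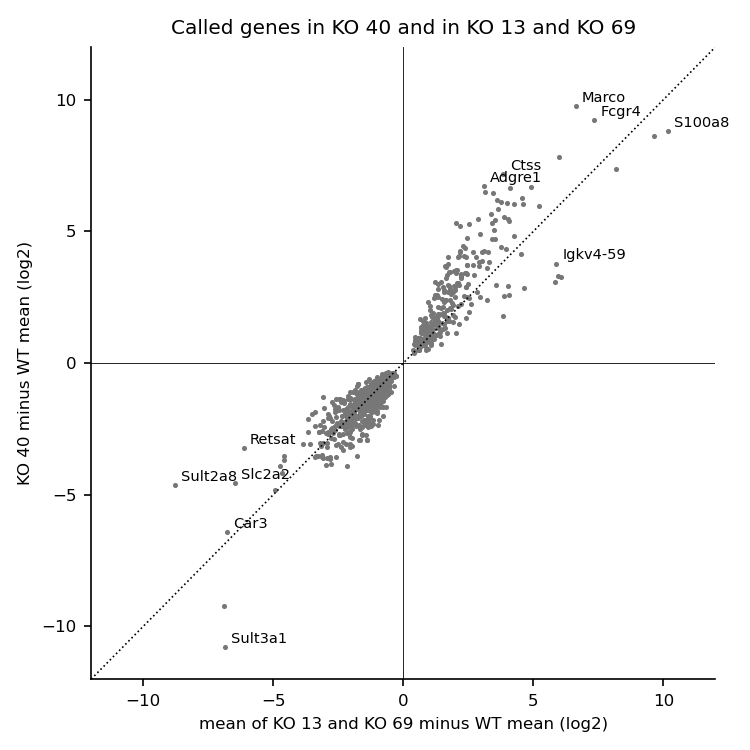
Departure from the WT mean in KO 40 (y axis, log2) against that in the mean of KO 13 and KO 69 (x axis, log2) for called autosomal genes above the negative controls in at least 1 group. The dotted line marks equal departure, and most points on the right lie above it, among them Marco, Ctss and Adgre1, while S100a8 and Igkv4-59 lie below.

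Whether the knockout changed F-titled livers differently from M-titled ones was tested as the interaction. No feature passed by limma (0 of 65956, with 4121 at an unadjusted p under 0.05), so nothing here is particular to the F-titled livers by this test. The lowest interaction p values included genes with a larger fall in the F-titled livers. Cyp2c67 differed by -3.15 in F-titled and -0.59 in M-titled livers (interaction adjusted p = 0.124), Aldh2 by -0.89 and 0.00 (0.124), Slc10a1 by -2.62 and 0.11 (0.126) and Stat5b by -1.07 and -0.09 (0.126). Hspb8, a small heat shock protein, differed by 1.06 and -0.77 (0.126), Klf11 by 0.48 and -0.47 (0.126), and Nfil3 by 1.69 and 0.28 (0.126). Plcxd2 differed by -2.77 and -0.13 (0.126). The myeloid rises had interaction values far from the threshold, with S100a8 at 9.48 and 6.89 (0.924) and Marco at 8.19 and 4.86 (0.806). A p that misses the threshold does not show that the effects were equal. Interaction calls appeared when a mouse was left out, 25 without WT 38 and 19 without KO 40.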

How the data were processed

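Liver RNA had been hybridised to 12 Affymetrix MTA 2.0 arrays. The authors' deposited table holds log2 values per transcript feature. The submitters' processing notes name Transcriptome Analysis Console, and its version, the normalization and the genome build are not stated in the labels used. The highest value on the scale is 19.93, and 359 features reach it on at least 1 F-titled array. Features were named through GEO's platform annotation and RefSeq (GRCm38.p6). Of 72688 rows 6732 were controls, and 30604 of the others had 1 gene symbol, 2146 several and 33206 none. A gene stands by its feature of highest mean over the 12 arrays.

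The deposited values were tested as they stand with limma 3.58.1 (R 4.3.3) on all 4 groups of both title letters, with Benjamini-Hochberg adjustment over 65956 features. KO 13 and KO 69 were averaged before the fit because they differed by no more than measurement noise, a change from the planned fit with 3 KO samples, which is given as an alternative. On simulated data with the same sample numbers the F-titled contrast recovered 20, 62, 92 and 100% of features changed by 0.5, 1, 2 and 4 log2 units, with 9 false calls among 65956 features. The simulated noise was independent between features and held no shared difference between arrays, such as that of the poly-A spikes. The number of false calls in the real data thus cannot be read from it. The number of arrays limits the precision.

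Named are Slc29a3, among called genes above the negative controls those with the 20 largest rises and the 20 largest falls, the 10 smallest p, the 6 smallest interaction p in each direction and up to 6 members per list by p, with markers named for their levels. Predicted, RIKEN and olfactory genes were left out of these, and exceptions are said to be chosen after their values were seen. Above the negative controls means over their 95th percentile on all arrays of a group. The members, the lists and the tests were chosen with earlier results of these data known. Alternatives were quantile normalization, median centring, a filter on dim features, array weights, trended and robust variances, only F-titled arrays, the poly-A level as a covariate and leaving out each mouse.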

Additional observations from a re-analysis of the deposited data

How the results depend on the processing

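None of the 188 called genes chosen by the naming rule changed sign under the alternatives run. The balance of the calls did change: without KO 13 and KO 69 together the list genes turned from 61 higher and 118 lower to 112 higher and 87 lower, and all features from 1060 and 1063 to 1588 and 638. The 2123 called features became 4083 with KO 13 and KO 69 as separate samples, 109 with only F-titled arrays and 1 with the poly-A level as a covariate. With 1 mouse left out they numbered 371 to 2503, and with KO 13 and KO 69 both left out 2226. Quantile normalization, median centring, the filter on dim features, array weights, trended and robust variances, adjustment over named autosomal features and leaving out features at the ceiling kept the number within 1.5 times, between 1748 and 2783.

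The difference of Slc29a3 stayed between -1.15 and -0.92 but lost its call with only F-titled arrays (-1.05) and with the poly-A covariate (-0.92). The 179 called genes of the lists became 295 with KO 13 and KO 69 as separate samples, 19 with only F-titled arrays, 0 with the poly-A covariate and 45 to 187 with 1 mouse left out. The interaction gave 1 called feature with separate samples, 2 with the dim filter, 79 without KO 13 and KO 69 together and 0 to 25 with 1 mouse left out.

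Of 188 called genes chosen by the naming rule 40 kept the call in every fit with 1 mouse left out. The call was lost for 138 without KO 40, 107 without WT 38, 87 without WT 27, 53 without WT 25, 12 without KO 69 and 2 without KO 13. Leaving out KO 13 or KO 69 singly takes no KO sample away, so these losses do not cover the loss of both together. No paired analysis was possible because the groups share no replicate numbers. Features at the ceiling and those near the negative controls understate differences.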
